A study of Mus musculus with 6 samples.

Results

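The 10 genes described here encode amino acid transporters of the plasma membrane, or the glycoprotein that carries some of them there: Slc38a1, Slc38a2, Slc38a4, Slc7a1, Slc7a2, Slc7a5, Slc7a11, Slc3a2, Slc1a4 and Slc1a5. They were taken by gene name from a table of 25491 genes, and the set was chosen by the measured counts of 1 of them: Slc38a2 was lower in Lama4-/- cells. The difference of Slc38a2 between the genotypes is therefore a description with no test, and the other members were taken as related transporters. All 10 were found in the table and 9 had enough counts to be tested; Slc7a11 did not.

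RNA was measured in mesenchymal progenitors of the mouse marrow, a stromal population from which bone and other connective tissue cells arise. They were sorted as CD45-, TER119-, CD31-, CD44-, CD51+ and SCA1-. One group was 3 libraries from Lama4-/- mice, deficient in a laminin chain of basement membranes, and the other was 3 libraries from wild type mice. All were C57BL/6J mice aged 14 weeks that had received 7 Gy, a sublethal dose of radiation, 6 weeks earlier, so no unirradiated group enters any comparison. The series names 3 mice of each genotype, without tying a library to a mouse and without naming a Cre or promoter. If a mouse gave more than 1 library, the p-values would reflect technical spread.

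Cells take up most amino acids through carriers of the solute carrier families, whose members differ in what they carry and in what drives transport. SNAT2, the product of Slc38a2, uses the sodium gradient to accumulate small neutral amino acids such as alanine and glutamine; its gene is induced when amino acids are short, and the stress transcription factor ATF4 induces several other members as well. Exchangers such as LAT1 (Slc7a5 with Slc3a2) then trade accumulated glutamine for leucine and other essential amino acids, which feed protein synthesis and signalling through the kinase complex mTORC1. In cells of the bone lineage, which secrete collagen rich in proline, glycine and alanine, this uptake supplies matrix production.

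The start regions of 4 members are shown because they belong to the gene that the set was picked for (Slc38a2), to the tested member with the largest fold difference (Slc7a1) and to the members with a match to the ATF4 element (Slc7a11 and Slc1a4). RefSeq (GRCm38.p6) gave a window from 250 bases before to 50 after the start site for 6 of the 10 members. Capitals mark matches to TGATGNAAN, the composite element bound by ATF4 with C/EBP partners, or to TGACNNNGC, the antioxidant response element, searched on both strands; the motifs do not overlap each other in these windows. All are written 5′ to 3′ on the gene's strand.
Slc38a2, chr15:96699679-96699978, minus strand: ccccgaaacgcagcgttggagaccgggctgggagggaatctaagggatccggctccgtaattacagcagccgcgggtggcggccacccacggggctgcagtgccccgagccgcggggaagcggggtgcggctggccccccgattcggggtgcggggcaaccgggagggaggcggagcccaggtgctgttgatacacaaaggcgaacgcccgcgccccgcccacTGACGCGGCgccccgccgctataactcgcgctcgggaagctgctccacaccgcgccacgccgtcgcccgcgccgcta
Slc7a1, chr5:148399855-148400154, minus strand: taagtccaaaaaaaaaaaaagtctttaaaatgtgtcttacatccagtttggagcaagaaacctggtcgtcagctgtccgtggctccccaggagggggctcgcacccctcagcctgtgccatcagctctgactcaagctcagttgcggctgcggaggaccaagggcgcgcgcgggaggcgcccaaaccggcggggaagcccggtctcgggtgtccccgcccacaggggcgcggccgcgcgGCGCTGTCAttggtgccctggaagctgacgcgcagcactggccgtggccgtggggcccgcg
Slc7a11, chr3:50443564-50443863, minus strand: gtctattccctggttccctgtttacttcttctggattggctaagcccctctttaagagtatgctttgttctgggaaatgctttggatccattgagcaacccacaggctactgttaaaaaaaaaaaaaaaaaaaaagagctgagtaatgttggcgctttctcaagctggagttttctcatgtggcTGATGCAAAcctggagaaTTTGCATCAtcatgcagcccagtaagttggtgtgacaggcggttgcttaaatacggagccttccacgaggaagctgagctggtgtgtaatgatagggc
Slc1a4, chr11:20332664-20332963, minus strand: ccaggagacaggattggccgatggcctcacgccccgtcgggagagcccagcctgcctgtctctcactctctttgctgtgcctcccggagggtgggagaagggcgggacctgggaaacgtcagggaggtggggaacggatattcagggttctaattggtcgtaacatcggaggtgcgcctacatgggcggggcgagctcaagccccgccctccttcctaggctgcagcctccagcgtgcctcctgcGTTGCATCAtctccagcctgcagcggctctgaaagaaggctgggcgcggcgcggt
In these windows the ATF4 element was found at 2 places in Slc7a11, as TGATGCAAA starting 66 bases before the start site and, reversed, as TTTGCATCA starting 48 bases before it. In Slc1a4 it was found reversed, as GTTGCATCA starting 5 bases before the start site. It stands in 3.95% of 32851 promoter windows of this length. Slc38a2 and Slc7a1 hold no match to it in these windows and 1 match each to the antioxidant element, which stands in 12.4% of windows. Sequence outside the RefSeq windows was not searched, so an element elsewhere in a gene would be missed. The Slc38a2 window is 73.0% G and C with 41 CpG dinucleotides, against 44.7% and 4 in the Slc7a11 window.

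Library totals ran from 12979711 to 15663957 counts in Lama4-/- and from 6263830 to 13409177 in wild type, where replicate 2 was the shallowest. Lama4 had 0 counts in each Lama4-/- library and 39.9 ± 5.82 CPM (CPM is a count scaled to the library total after TMM adjustment; SD, n = 3) in wild type. Of 14465 genes tested with edgeR's quasi-likelihood test, 1 (0.00691%), Lama4 itself, passed an adjusted p of 0.05. Its edgeR adjusted p was 0.0497, so this test barely called a gene without counts in Lama4-/-, and a gene that did not pass it is not thereby shown to be unchanged. DESeq2 called 741 of 15968 (4.64%), 3.56% lower and 1.08% higher in Lama4-/-. The 8 markers of marrow stroma were counted in all 6 libraries and summed to between 58600 and 148000 CPM in Lama4-/- and between 98600 and 121000 CPM in wild type. Markers of other cells were also present. The 10 red cell markers summed to 1390 to 3890 CPM in Lama4-/- and to 266 to 1710 CPM in wild type, with Hbb-bs at 1440 ± 703 CPM in Lama4-/- and 390 ± 343 CPM in wild type. The 10 neutrophil markers summed to 80.5 to 717 CPM in Lama4-/- and to 27.4 to 109 CPM in wild type, with S100a9 at 155 ± 112 CPM in Lama4-/- and 27.0 ± 19.4 CPM in wild type. The 10 macrophage markers summed to 64.6 to 127 CPM in Lama4-/- and to 33.4 to 60.1 CPM in wild type, with Lyz2 at 66.4 ± 26.9 CPM in Lama4-/- and 16.8 ± 4.69 CPM in wild type. The 7 endothelial markers in the table summed to 0.18 to 1.74 CPM in Lama4-/- and to 6.16 to 9.72 CPM in wild type, with Egfl7 at 0.658 ± 0.835 CPM in Lama4-/- and 2.53 ± 1.27 CPM in wild type, while Cdh5, Kdr, Tek, Flt1 and Tie1 averaged under 1 CPM. The 6 megakaryocyte markers summed to 8.64 to 18.4 CPM in Lama4-/- and to 23.8 to 38.6 CPM in wild type, with Itgb3 at 2.79 ± 3.03 CPM in Lama4-/- and 11.7 ± 7.27 CPM in wild type. The 2 B cell markers in the table reached at most 0.944 CPM in Lama4-/- and 2.01 CPM in wild type, with Cd79a at 0.0251 ± 0.0434 CPM in Lama4-/- and 0.643 ± 1.11 CPM in wild type. The part of these other cells in the results below was not tested, and in bulk RNA fewer cells of a type and less RNA per cell cannot be told apart.

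Slc38a2 was by far the most abundant of the 3 SLC38 members. It had 173, 199 and 224 CPM in Lama4-/- libraries, against 453, 472 and 446 CPM in wild type libraries, from 2641 to 6055 counts in a library. Every Lama4-/- library lay below every wild type library, and the gap was far wider than the spread within either genotype. The means were 198 ± 25.5 CPM in Lama4-/- and 457 ± 13.4 CPM in wild type (SD, n = 3 each), a level 56.6% lower in Lama4-/-, and the fitted log2 fold change was -1.20 (SE 0.17). Among the 14465 tested genes, 12% had every Lama4-/- library below every wild type library and 15.6% had a log2 fold change of -1 or lower, so neither feature is rare in these data; since Slc38a2 was picked for this difference, nothing is read from its place among them. In the authors' deposited table its shrunken log2 fold change was -1.16 (SE 0.18). The spread of Slc38a2 within a genotype was small: the SD was 12.9% of the mean in Lama4-/- and 2.93% in wild type, while over 1310 genes averaging at least 100 CPM the median was 16.8% in Lama4-/- and 19.8% in wild type. This spread comes from the same values by which Slc38a2 was picked, so nothing is read from it either.

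**Figure D1:**
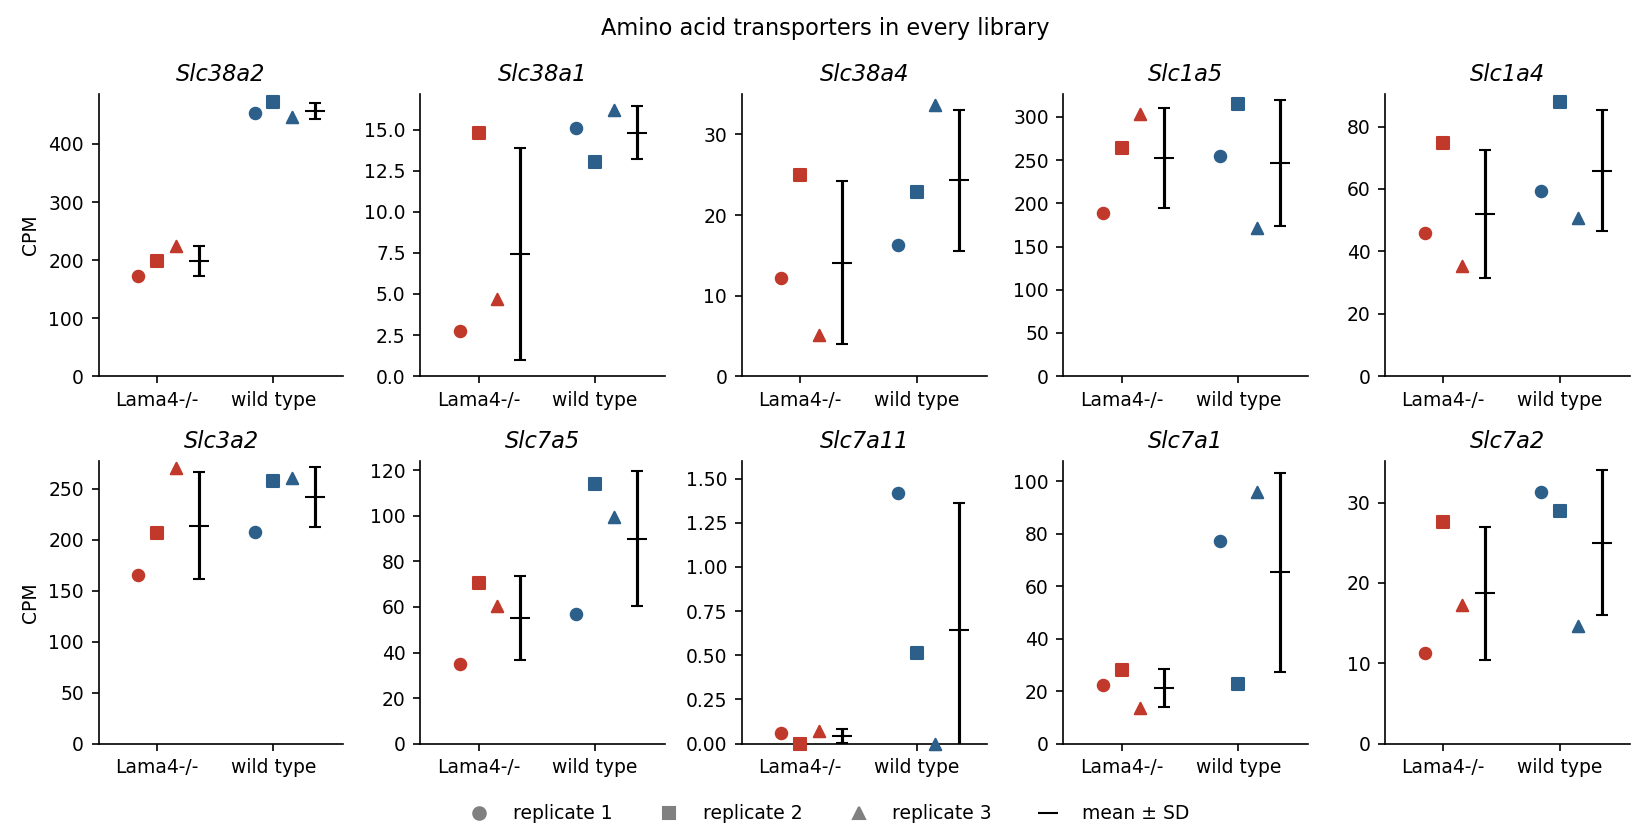
CPM of the 10 transporters in every library, Lama4-/- on the left and wild type on the right of each panel; symbols mark replicates, and the bars beside them the mean and SD of 3 libraries, cut at 0 for Slc7a11. Only in the Slc38a2 panel do the genotypes not overlap, at 173 to 224 CPM in Lama4-/- and 446 to 472 CPM in wild type.

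The close relatives of Slc38a2 were far less abundant, at 46 to 333 counts in a Lama4-/- library, and varied widely between Lama4-/- libraries. Slc38a1 (SNAT1), another sodium-coupled glutamine carrier, had 2.76, 14.8 and 4.72 CPM in Lama4-/-, against 15.1, 13 and 16.2 CPM in wild type. Lama4-/- replicate 2 was at the wild type level and the other Lama4-/- libraries were below it. The log2 fold change was -0.99 (SE 0.65; edgeR adjusted p = 0.589), -1.99 without that library (adjusted p = 0.217) and -0.59 without Lama4-/- replicate 1 (adjusted p = 0.765), the ends of the range over the 6 libraries left out in turn. Slc38a4 (SNAT4), a carrier best known from liver and placenta, had 12.2, 25.0 and 5.16 CPM in Lama4-/-, against 16.3, 22.9 and 33.6 CPM in wild type. Replicate 2 was again the highest Lama4-/- library, and the genotypes overlapped, with a log2 fold change of -0.78 (SE 0.59; edgeR adjusted p = 0.644). It was -1.49 without that library (edgeR adjusted p = 0.289) and -0.38 without Lama4-/- replicate 3 (adjusted p = 0.829). Per kb of merged exons, Slc38a2 made up 76.9% to 94.5% of the summed level of these 3 genes in Lama4-/- libraries and 85.1% to 91.6% in wild type libraries, ranges that overlap.

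These 3 genes also lie side by side. They stand on chromosome 15 of GRCm38 within 484.5 kb, all on the minus strand: Slc38a1 at 96571418 to 96642913, Slc38a2 at 96687392 to 96699730 and Slc38a4 at 96994820 to 97055956. The next counted genes on the side of Slc38a1 are Scaf11, at 28.4, 35.9 and 24.6 CPM in Lama4-/- and 57.1, 35.1 and 91.7 CPM in wild type, and Arid2, a chromatin remodelling subunit, at 14.7, 19.3 and 24.2 CPM in Lama4-/- and 44.4, 18.3 and 39.0 CPM in wild type. Beyond Slc38a4, Amigo2, an adhesion molecule, had 12.7, 6.24 and 7.26 CPM in Lama4-/- and 0.374, 3.94 and 0 CPM in wild type. Thus Amigo2 was higher in every Lama4-/- library while Scaf11 and Arid2 overlapped between genotypes, and none of these 3 passed the edgeR adjustment (adjusted p = 0.321 for Scaf11, 0.452 for Arid2 and 0.512 for Amigo2). Gm38144, an unclassified transcript that starts 443 bases from Slc38a2 on the opposite strand, had 1 count in the 6 libraries together.

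The other members are spread over 6 chromosomes of GRCm38. Slc1a4 lies on chromosome 11 at 20302180 to 20332713 (minus strand) and Slc1a5 on chromosome 7 at 16781340 to 16798274 (plus strand). Slc3a2 lies on chromosome 19 at 8706882 to 8723369 (minus strand), Slc7a5 on chromosome 8 at 121881150 to 121907694 (minus strand) and Slc7a11 on chromosome 3 at 49892526 to 50443614 (minus strand). Slc7a1 lies on chromosome 5 at 148327410 to 148399904 (minus strand) and Slc7a2 on chromosome 8 at 40862396 to 40922308 (plus strand).

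The exchangers of small neutral amino acids overlapped between the genotypes. Slc1a5 (ASCT2), which exchanges glutamine for other neutral amino acids, had 189, 264 and 303 CPM in Lama4-/-, against 255, 315 and 171 CPM in wild type. The ranges lay almost on top of each other, at means of 252 ± 57.9 CPM in Lama4-/- and 247 ± 72.7 CPM in wild type and a log2 fold change of 0.03 (SE 0.28; edgeR adjusted p = 0.977). Slc1a4 (ASCT1), which carries serine, alanine and cysteine, had 45.9, 74.8 and 35.3 CPM in Lama4-/-, against 59.4, 87.8 and 50.6 CPM in wild type. The genotypes overlapped here too, with a log2 fold change of -0.34 (SE 0.35; edgeR adjusted p = 0.747).

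Slc3a2 encodes CD98hc (4F2hc), the heavy chain that brings LAT1, xCT and other light chains to the cell surface, and it was among the most abundant members. It had 165, 207 and 270 CPM in Lama4-/-, against 208, 258 and 261 CPM in wild type. The highest library of all was Lama4-/- replicate 3, and the log2 fold change was -0.18 (SE 0.23; edgeR adjusted p = 0.805). Its light chain Slc7a5 (LAT1), the exchanger for leucine and other large neutral amino acids, had 34.8, 70.5 and 60.6 CPM in Lama4-/-, against 56.7, 114 and 99.4 CPM in wild type. The genotypes overlapped through wild type replicate 1, and the log2 fold change was -0.70 (SE 0.36; edgeR adjusted p = 0.469). The level of Slc7a5 per kb was 0.246 ± 0.0675 of that of Slc3a2 in Lama4-/- and 0.348 ± 0.0818 in wild type (SD, n = 3 each), ratios that overlapped between genotypes. Another light chain, Slc7a6 (y+LAT2), stood at 75.0, 62.2 and 89.7 CPM in Lama4-/- and 114, 81.9 and 86.5 CPM in wild type.

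Slc7a11 (xCT), the light chain that imports cystine for glutathione synthesis, was close to absent from these libraries. It had 1, 0 and 1 counts in Lama4-/-, against 19, 3 and 0 counts in wild type. Wild type replicate 1 held 19 of them, wild type replicate 3 held none at 13409177 counts of depth, and the gene did not pass the filter on low counts, so it is given no fold change. The start region with 2 ATF4 elements belongs to the member with the fewest counts, and a relation between the element and the level was not tested.

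The carriers of the cationic amino acids arginine, lysine and ornithine overlapped between the genotypes. Slc7a1 (CAT-1), the common arginine transporter, had 22.2, 28.0 and 13.7 CPM in Lama4-/-, against 77.4, 22.9 and 95.9 CPM in wild type. Wild type replicate 2, the shallowest library with 134 counts of this gene, lay within the Lama4-/- range and the other wild type libraries far above it. The log2 fold change was the largest of the tested members, -1.62 (SE 0.53), and did not pass (edgeR adjusted p = 0.295); with each library left out it ranged from -2.02 without wild type replicate 2 (adjusted p = 0.177) to -1.24 without wild type replicate 3 (adjusted p = 0.662). DESeq2 gave an adjusted p of 0.0529, and the authors' deposited table lists Slc7a1 at an adjusted p of 0.0425, where 4.75% of genes with an adjusted p there were called lower. Slc7a2 (CAT-2), which supplies arginine in activated cells, had 11.3, 27.6 and 17.2 CPM in Lama4-/-, against 31.3, 28.9 and 14.7 CPM in wild type. The genotypes overlapped, with a log2 fold change of -0.42 (SE 0.45; edgeR adjusted p = 0.762). Its exons share 635 bases with Gm26584 on the opposite strand, 6.95% of their length, and the library kit does not mark strand.

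Of the 8 tested members other than Slc38a2, 0 passed the edgeR test, where 0.00691% of all genes did, and 0 passed with DESeq2, where 4.64% did. 1 of the 8, Slc7a1, was lower at an unadjusted p under 0.05, as were 8.34% of all tested genes. A negative log2 fold change was found in 7 of the 8, with Slc1a5 the exception, against 52% of all tested genes, and their median was -0.56, against -0.04 over all genes. The median of all 9 tested members, Slc38a2 included, was -0.70, and it ranged from -0.93 to -0.38 with each library left out. Such a range was not computed for the 8 without Slc38a2.

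Compared per length, the members formed a high, a middle and a low set. Per kb of merged exons, Slc3a2 stood at 60.7 ± 15 CPM per kb in Lama4-/- and 68.7 ± 8.44 in wild type, and Slc1a5 at 60.4 ± 13.9 in Lama4-/- and 59.2 ± 17.4 in wild type; these neighbours in the order overlapped in both genotypes. Slc38a2 came next in both, at 22.5 ± 2.89 CPM per kb in Lama4-/- and 51.7 ± 1.52 in wild type. In Lama4-/- its libraries lay below every value of Slc1a5, while in wild type they lay inside the range of Slc1a5. Slc7a5 followed at 14.9 ± 4.97 CPM per kb in Lama4-/- and 24.3 ± 8.04 in wild type, overlapping with Slc1a4 at 13.2 ± 5.20 in Lama4-/- and 16.8 ± 4.96 in wild type. The low set was Slc38a4, Slc7a1 and Slc7a2, between 1.85 and 5.70 CPM per kb on average, where neighbours in the order overlapped in both genotypes. Slc38a1 averaged 0.431 in Lama4-/- and 0.857 in wild type, below them, and Slc7a11 came last. Slc38a2 made up 12.7% ± 1.30 of the summed level of all 10 genes per kb in Lama4-/- and 22.1% ± 1.85 in wild type, and it stood at 0.377 ± 0.0439 of the level of Slc3a2 in Lama4-/- and 0.761 ± 0.0970 in wild type. These shares rest on the difference that the set was picked for and are given without a test.

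**Figure D2:**
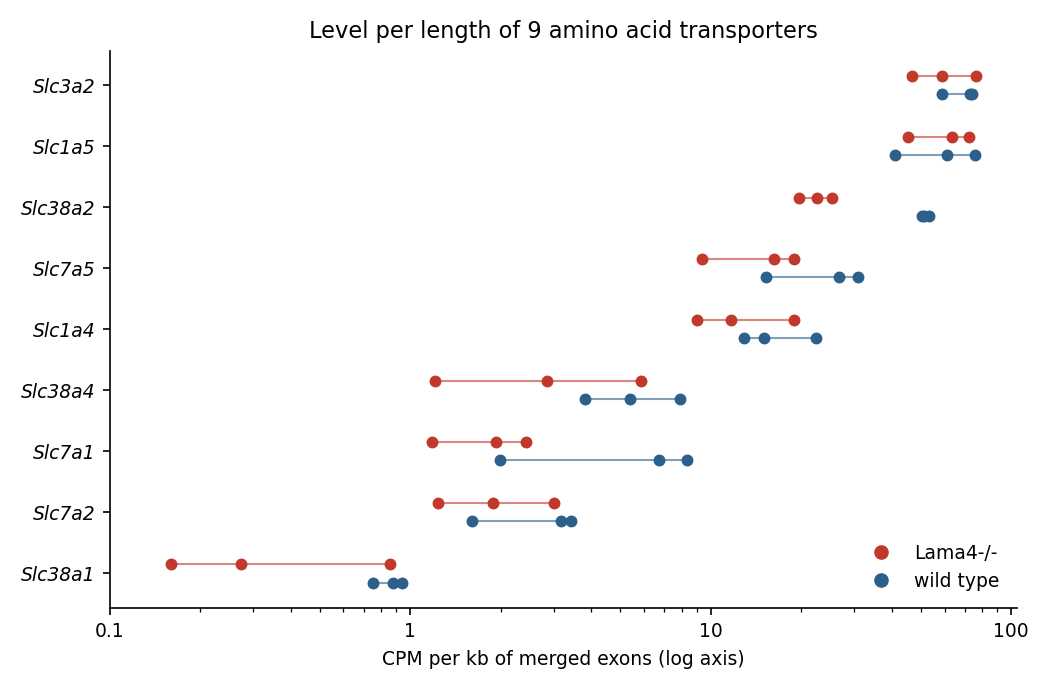
CPM per kb of merged exons of 9 transporters on a log axis, ordered by the wild type mean, with each library as a point and a line over the range of each genotype; Slc7a11 is left out for its zeros. Slc3a2 and Slc1a5 are highest in both genotypes, and Slc38a2 stands at 22.5 CPM per kb on average in Lama4-/- and 51.7 in wild type.

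Slc38a2 and several other members have long transcripts, and fold changes in these libraries followed length. The longest annotated transcript has 6116 bases in Slc38a2, 7266 in Slc38a1, 7179 in Slc7a1 and 7910 in Slc7a2, and from 2807 to 3932 bases in the other tested members. The median log2 fold change of all genes was 0.34 in the decile with the shortest transcripts and -0.92 in the decile with the longest, and -0.58 in the decile of Slc38a2. With this trend removed from every library, the log2 fold change of Slc38a2 was -0.53 (SE 0.18) in place of -1.20. That of Slc7a1 was -0.78 in place of -1.62, that of Slc38a1 -0.20 in place of -0.99, and that of Slc7a2 turned from -0.42 to 0.43. The shorter members moved less: Slc7a5 stood at -0.58 in place of -0.70, Slc38a4 at -0.62 in place of -0.78 and Slc3a2 at -0.22 in place of -0.18. The median of the 8 tested members other than Slc38a2 was then -0.21, against 0.02 over all genes. With Slc38a2 included it was -0.22, and -0.52 with the replicate number as a block as well. Of the 8 others 7 were negative, Slc1a5 at -0.00 among them and Slc7a2 not, where 48.6% of all genes were negative, and none of them passed (edgeR adjusted p of 0.725 or more).

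**Figure D3:**
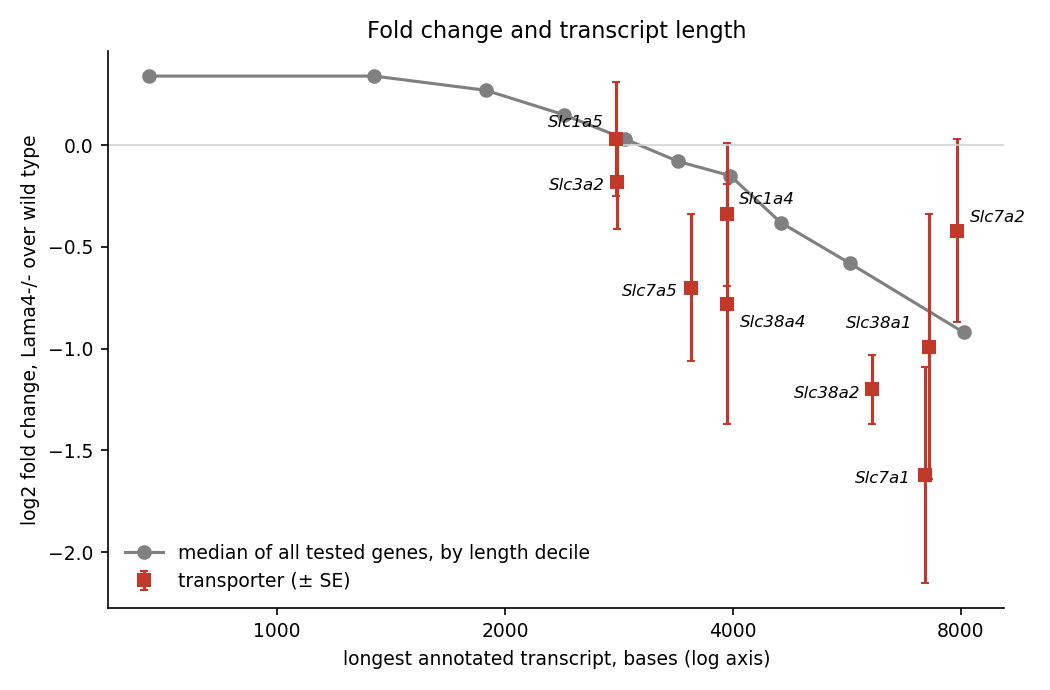
Log2 fold change (Lama4-/- over wild type) against the longest annotated transcript in bases on a log axis, for the 9 tested transporters (squares, ± SE) and as the median of all tested genes in each length decile (line). Slc38a2 lies at -1.20, below the median of -0.58 of its decile, and Slc7a2 at -0.42, above the median of -0.92 of its decile.

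**Figure D4:**
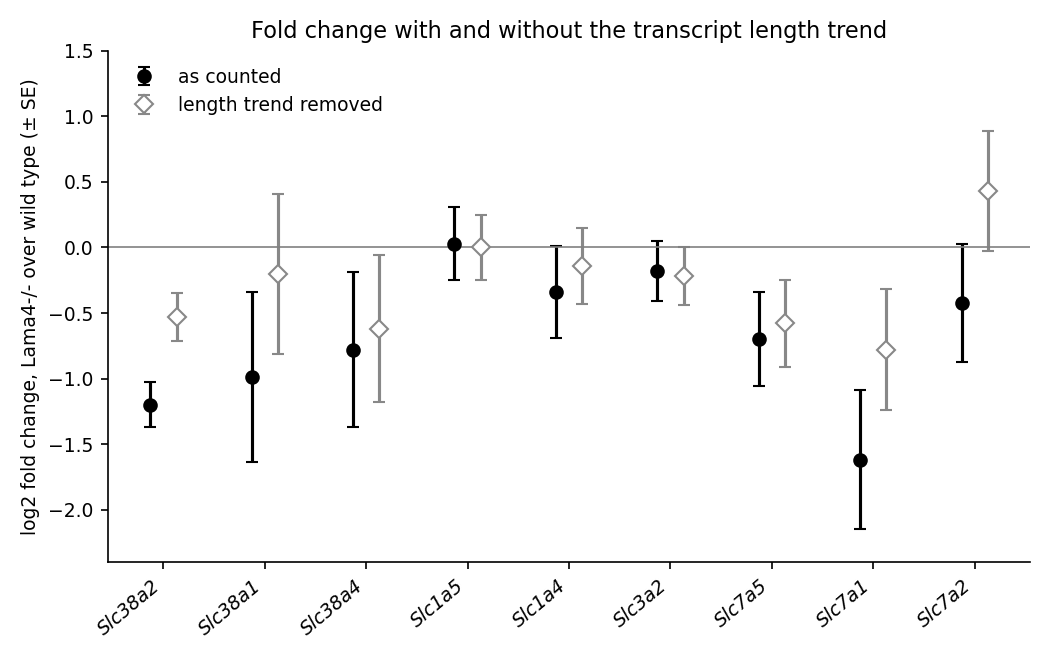
Log2 fold change ± SE of the 9 tested transporters in the edgeR fit as counted (filled) and with the length trend removed (open). Slc38a2 stands at -1.20 as counted and -0.53 without the trend, and Slc7a2 at -0.42 and 0.43; Slc1a5 moves by less than its SE.

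The genes with the profile most like that of Slc38a2 over the 6 libraries share its difference by the way they were chosen. Likeness was the root mean square distance between centred log2 CPM values among 6139 genes averaging at least 20 CPM. The nearest were Spag9, a scaffold of JNK signalling, at a distance of 0.10 on the log2 scale; Ddx21, a nucleolar RNA helicase, at 0.11; Pcnx3 at 0.12; and Snx27, a sorting nexin of endosomal recycling, and Edem3, a mannosidase of ER-associated degradation, at 0.13 each. Spag9 had 31.1, 44.7 and 49.7 CPM in Lama4-/-, against 96.0, 98.1 and 95.3 CPM in wild type. Its wild type spread was small and its lowest values were in Lama4-/- replicate 1 and wild type replicate 3, as in Slc38a2. This likeness too follows from how Spag9 was chosen, so nothing is read from it. The longest transcripts of these nearest genes have from 4722 bases (Ddx21) to 7340 bases (Spag9). Their log2 fold changes, from -1.21 (Spag9) to -1.04 (Snx27) as counted, were from -0.75 (Ddx21) to -0.29 (Pcnx3) with the length trend removed. The nearest of the other transporters was Slc7a5, at 0.46, and the farthest Slc7a1, at 0.77.

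Other transporters of the plasma membrane did not pass the edgeR test in either direction, while 2 of the 14 tested were lower and 1 higher at an unadjusted p under 0.05 (8.34% and 4.45% of all tested genes were) and DESeq2 called 1, Slc6a6 (4.64% of all genes). Among the other transporters found in the file, 19 in all, 14 were tested, 8 with a negative and 6 with a positive log2 fold change, and their median was -0.27, which turned to 0.16 with the length trend removed and was -0.09 with the replicate block as well. In 3 of the 14 every Lama4-/- library was below every wild type library, as in 12% of all tested genes. Slc6a6, the taurine transporter, had 132, 226 and 163 CPM in Lama4-/-, against 441, 290 and 324 CPM in wild type. The genotypes did not overlap, and the log2 fold change of -1.02 (SE 0.26; edgeR adjusted p = 0.238) was -0.34 without the length trend. Slc1a1, a glutamate and cysteine carrier, was also lower in every Lama4-/- library, at 3.48, 4.14 and 2.03 CPM in Lama4-/-, against 4.64, 9.59 and 23.5 CPM in wild type, and so was Slc16a10, an aromatic amino acid carrier, at 0.660, 0.677 and 0 CPM in Lama4-/-, against 1.87, 2.57 and 2.93 CPM in wild type. Slc36a2, a proton-coupled carrier of glycine and proline, had 237, 169 and 286 CPM in Lama4-/-, against 174, 127 and 161 CPM in wild type, with an overlap through Lama4-/- replicate 2. Of the carriers of lysosomes and mitochondria, 15 of 17 were tested and 0 passed with edgeR, 1 was lower at an unadjusted p under 0.05 and DESeq2 called 1 (Sfxn2), with 8 negative and 7 positive and a median of -0.08. Among them Sfxn2, a mitochondrial sideroflexin, averaged 11.4 ± 2.71 CPM in Lama4-/- and 30.3 ± 6.36 CPM in wild type, and Slc15a4, a lysosomal histidine and peptide carrier, 31.1 ± 4.12 CPM in Lama4-/- and 22.4 ± 3.25 CPM in wild type. Slc25a15, the mitochondrial ornithine carrier, averaged 12.4 ± 5.92 CPM in Lama4-/- and 21.1 ± 6.28 CPM in wild type, and Slc36a1, a lysosomal proton-coupled carrier, 3.93 ± 3.65 CPM in Lama4-/- and 6.99 ± 4.14 CPM in wild type.

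The list of ATF4 and its amino acid response targets, the regulon to which Slc38a2 belongs, leaves out the 10 transporters. Since Slc38a2 is left out, the list does not cover the whole regulon. Of the 9 tested transporters, 8 had a negative log2 fold change, against 52% of all tested genes, and these 8 include Slc38a2, which was picked for its fall. The listed genes had more positive than negative fold changes. Of 23 tested genes 0 passed the edgeR test, 4 were higher at an unadjusted p under 0.05 (4.45% of all tested genes were), 14 had a positive and 9 a negative log2 fold change, and the median was 0.15, the same with the length trend removed. Atf4 itself had 603, 607 and 730 CPM in Lama4-/-, against 543, 461 and 435 CPM in wild type. Each Lama4-/- library lay above each wild type library, with a log2 fold change of 0.43 (SE 0.18; edgeR adjusted p = 0.382). Its partner and target Atf3 had 1500, 980 and 1680 CPM in Lama4-/-, against 805, 871 and 748 CPM in wild type, and Stc2, a secreted stress-response glycoprotein, 44.5, 39.8 and 55.0 CPM in Lama4-/-, against 21.9, 19.9 and 15 CPM in wild type. Both were higher in every Lama4-/- library, where 10.3% of all tested genes were, and neither passed with edgeR (adjusted p = 0.267 for Atf3 and 0.237 for Stc2), while both did with DESeq2 (adjusted p = 0.0459 for Atf3 and 0.00284 for Stc2), which called 1.08% of all genes higher. Asns, asparagine synthetase, had 98.6, 57.9 and 101 CPM in Lama4-/-, against 48.7, 59.8 and 40.7 CPM in wild type, overlapping through replicate 2 of both genotypes. With the length trend removed, the log2 fold change was 0.21 for Atf4, 0.56 for Atf3, 0.58 for Asns and 1.53 for Stc2. As counted it was 0.43, 0.78, 0.79 and 1.29 in the same order. These 4 genes were named because they had the smallest edgeR p of the list in this same comparison, and Slc38a2 was picked for its fall. In 3 of the 23 tested genes of the list every Lama4-/- library lay above every wild type library, against 10.3% of all tested genes. The opposite position of Slc38a2 and of these 4 genes was not tested as a difference and does not describe the list as a whole.

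**Figure D5:**
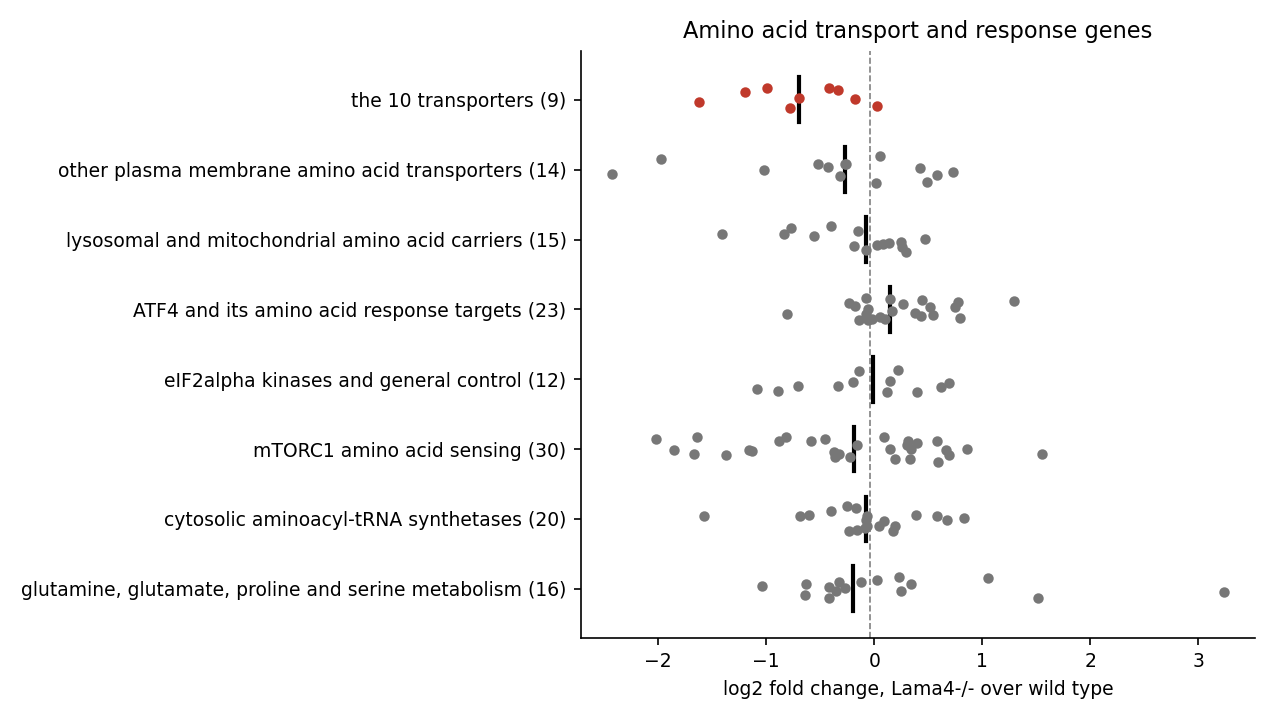
Log2 fold change (Lama4-/- over wild type) of each tested gene of the 10 transporters and of 7 lists around amino acid supply, with the number tested in brackets, the list median as a bar and the median of all tested genes (-0.04) as a dashed line. The transporters have a median of -0.70 with Slc38a2 included, and the ATF4 list one of 0.15.

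The remaining lists around amino acid sensing and use gave no call with edgeR and were spread to both sides. At an unadjusted p under 0.05, 1 general control gene was higher, 4 mTORC1 genes were lower and 2 higher, 2 synthetases were lower and 2 higher, and 1 metabolic enzyme was lower and 2 higher, of 12, 30, 20 and 16 tested, where 8.34% of all tested genes were lower and 4.45% higher. DESeq2 called 1 general control gene, 3 mTORC1 genes, 2 synthetases and 2 metabolic enzymes, and 4.64% of all genes. The eIF2alpha kinases and general control genes include both restraints on translation and factors that start it. Of these, 12 genes were tested with 6 on each side and a median of -0.01. Eif2b2, a subunit of the exchange factor eIF2B, averaged 61.4 ± 3.04 CPM in Lama4-/- and 38.1 ± 3.71 CPM in wild type, with Eif2b5 at 57.2 ± 22 CPM in Lama4-/- and 37.1 ± 6.42 CPM in wild type and Eif2b4 at 48.8 ± 3.87 CPM in Lama4-/- and 36.9 ± 13.2 CPM in wild type. Impact, an inhibitor of the kinase GCN2, averaged 15.4 ± 8.96 CPM in Lama4-/- and 32.8 ± 2.90 CPM in wild type. For mTORC1 amino acid sensing, 30 genes were tested, 16 negative and 14 positive, with a median of -0.19 that turned to 0.02 with the length trend removed. Fnip1, a partner of folliculin in the activation of mTORC1, had 15.5, 10.5 and 14.6 CPM in Lama4-/-, against 47.3, 34.2 and 65.0 CPM in wild type. This log2 fold change of -1.85 (SE 0.33; edgeR adjusted p = 0.237) was -1.13 without the length trend. Castor2, a homologue of the arginine sensor, averaged 8.04 ± 4.11 CPM in Lama4-/- and 25.5 ± 4.39 CPM in wild type, a log2 fold change of -1.67 that was -0.87 without the length trend. Sec13, a subunit of GATOR2 and of the COPII coat, averaged 393 ± 73.8 CPM in Lama4-/- and 248 ± 15.2 CPM in wild type, and Nprl2, a subunit of GATOR1, 25.6 ± 15.4 CPM in Lama4-/- and 8.78 ± 2.80 CPM in wild type.

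For the cytosolic aminoacyl-tRNA synthetases, which load amino acids onto tRNA, all 20 genes in the table were tested, 12 negative and 8 positive, with a median of -0.08. Iars, for isoleucine, averaged 24.8 ± 8.69 CPM in Lama4-/- and 73.8 ± 10.2 CPM in wild type, whereas Gars, for glycine, averaged 185 ± 17.3 CPM in Lama4-/- and 124 ± 2.39 CPM in wild type and Mars, for methionine, 99.3 ± 19.8 CPM in Lama4-/- and 56.1 ± 23.0 CPM in wild type. Every Lama4-/- library lay below every wild type library in 2 of the 20, Iars and Eprs, and above in 3, Gars, Mars and Dars, as in 12% and 10.3% of all tested genes. Eprs, for glutamate and proline, averaged 125 ± 4.89 CPM in Lama4-/- and 164 ± 14.3 CPM in wild type, but its log2 fold change of -0.40 became 0.20 with the length trend removed. Among 16 tested enzymes of glutamine, glutamate, proline and serine, 9 were negative and 7 positive with a median of -0.20. Gfpt1, which spends glutamine on hexosamines, averaged 33.2 ± 9.35 CPM in Lama4-/- and 68.1 ± 4.69 CPM in wild type, a log2 fold change of -1.04 that was -0.36 without the length trend. Pycrl, a reductase of proline synthesis, averaged 31.9 ± 12.2 CPM in Lama4-/- and 15.3 ± 1.13 CPM in wild type, and Shmt1, a serine hydroxymethyltransferase, 7.05 ± 5.62 CPM in Lama4-/- and 0.745 ± 0.383 CPM in wild type.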

How the data were processed

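cDNA of the sorted cells was made with SMART-Seq v4, turned into Nextera XT libraries and sequenced as single reads of 75 bp, per the labels; this kit primes on the poly(A) tail and does not mark strand. STAR 2.6.1d, featureCounts, DESeq2, FastQC 0.11.8, MultiQC 1.7 and the GRCm38 build are listed in the submitters' processing notes, whose entries used here give no parameters. The block of the deposited table that is headed normalized holds whole numbers in 100% of cells and was taken as the authors' raw counts. The deposited block headed raw is a signal equal to those counts times 1 constant per library and was not tested. The remaining columns are, per the file headers, the authors' DESeq2 comparison, with a mean signal, a shrunken log2 fold change and its error, a Wald score and p-values.

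Counts were filtered with filterByExpr, scaled with TMM and tested by quasi-likelihood in edgeR 4.0.16 (R 4.3.3, robust moderation), 3 libraries against 3 with no covariate, and p-values were adjusted over all 14465 tested genes by Benjamini-Hochberg. DESeq2 1.42.0, limma 3.58.1 and other settings were tried as alternatives. The length trend was removed by fitting, for each library, a lowess curve with a span of 0.3 to the deviation of log2 CPM against transcript length. Lengths and positions came from GENCODE M21 (GRCm38), which held 25458 of the gene identifiers. Libraries of 1 genotype differed by far more than counting noise, with a chi-square of at least 42.6 per gene for every pair. The named genes are the 10 members, up to 4 genes of each list with the smallest p, the 5 genes nearest to Slc38a2, its 3 counted neighbours on each side, Lama4 and the most abundant gene of each marker list of other cells; Slc7a6 and Dars were added after their values were seen. The result of 1 gene that this rule names is not reported here. The members, the lists and the length trend were chosen with earlier results of these data known.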

Additional observations from a re-analysis of the deposited data

How the results depend on the processing

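Of the members, Slc38a2 had a log2 fold change between -1.30 and -1.10 with each library left out, between -1.23 and -1.11 under the other scalings, filters and tools and with the replicate number as a block, and -0.53 and -0.54 with the length trend removed without and with that block. 0 of the 8 other tested members passed under any of the 16 alternatives. The number of genes called, 1 in the edgeR test, was 12 without a filter, 741 with DESeq2 and 0 with upper-quartile scaling, limma voom, no robust moderation, the replicate block, and the length trend removed with or without that block; with each library left out it ranged from 0 to 1. DESeq2 called 1 other plasma membrane transporter, 1 carrier of lysosomes and mitochondria, 2 ATF4 targets, 1 general control gene, 3 mTORC1 genes, 2 synthetases and 2 metabolic enzymes, where edgeR called 0 of each. Slc7a2 turned to 0.43 with the length trend removed and to 0.46 with the block as well; Eprs to 0.20 in both and Arid2 to 0.20 and 0.22. Slc1a5, at 0.03, was at -0.00 in both and between -0.17 and 0.24 with each library left out. The mTORC1 median turned to 0.10 with a filter of 5 CPM in 3 libraries, to 0.02 with the length trend removed, to 0.07 with the block as well, and ranged from -0.32 to 0.06 with each library left out; the median of other plasma membrane transporters turned to 0.16 with the length trend removed but was -0.09 with the block as well, and that of metabolic enzymes ranged from -0.26 to 0.01 with each library left out. Which cause lies behind these shifts was not tested. Ranked per kb of the longest transcript, Slc38a2 kept place 3 in both genotypes. The labels give both genotypes replicate numbers 1 to 3 but no shared origin. Deviations from the group mean of same-numbered libraries correlated at 0.0400, 0.132 and 0.0539 across genes, each higher than with any other number, a hint from the data and not from the design.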
